A study of Mus musculus with 12 samples.

Results

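Activin, inhibin and follistatin genes were examined in fetal mouse testes that lacked Nr2f2 in part of their cells. The 8 genes were taken by symbol from the deposited table of 24470 genes, by a rule on gene names and not on levels or fold changes: the subunit genes Inha, Inhba and Inhbb, the antagonist genes Fst and Fstl3, and the receptor genes Acvr1b, Acvr2a and Acvr2b. All 8 passed the filter on low counts, as did 15572 genes in total. Whole testes were collected at E14.5 and 3 testes were pooled for each library, with 6 control and 6 conditional knockout (cKO) libraries of polyadenylated RNA. Control embryos were homozygous for a floxed Nr2f2 allele (Nr2f2 f/f) and carried no Cre. The cKO embryos carried the same floxed alleles together with Wt1 CreER, a tamoxifen-inducible Cre recombinase expressed from the Wt1 locus. Tamoxifen was given on E11.5 and E12.5 to the pregnant females, which carried embryos of both groups, so controls were exposed as well. Loss of Nr2f2 was therefore limited to cells that expressed Wt1 at that time, and the effect of the Cre allele itself cannot be told apart from that of Nr2f2 loss. The sources used here do not say whether the pools came from separate litters, so p-values measure the spread between pools.

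Activins are dimers of beta subunits, and inhibins pair a beta subunit with the alpha subunit. An activin binds a type II receptor, which recruits and phosphorylates a type I receptor, and the type I receptor activates SMAD transcription factors. Inhibin competes for the type II receptor without signalling, and follistatins trap activin outside the cell. In the fetal testis, activin A from Leydig cells is known to drive Sertoli cell proliferation, and Inhba is also expressed in interstitial progenitors, whereas Fst is known as a gene of the supporting cells of the fetal ovary.

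The target gene and the libraries were checked first. Nr2f2, which encodes the nuclear receptor COUP-TFII, ran from 163 to 186 CPM (counts scaled to library size) in controls and from 50.2 to 119 CPM in cKO, so transcript remained in every cKO library. Xist, a noncoding RNA expressed from the inactive X, exceeded 100 CPM in 4 libraries: control 1 (891 CPM) and cKO 3, 5 and 6 (304, 507 and 433 CPM). The other 8 libraries, 5 control and 3 cKO, held 5.15 to 7.68 CPM. The same 4 libraries had the highest sums of 6 markers of fetal ovary supporting cells (159 to 300 CPM, against 80.9 to 102 CPM elsewhere) and of 4 meiosis genes (265 to 471 CPM, against 93.6 to 156 CPM). These transcripts go against the testis label that all 12 pools carry, and whether the 4 pools contain XX gonads was not tested. The main results are therefore given for all 12 libraries and for the 8 with low Xist. Leydig and Sertoli markers were present in every library. Total counts ran from 7044531 to 59404778.

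Windows at the annotated starts of Inhbb and Acvr2b, the 2 members whose log2 CPM correlated most strongly across the 8 libraries with low Xist, and of Inha, which holds a half-site, are shown. They are RefSeq windows on GRCm38.p6, from 250 bases before to 50 bases after the annotated start, read 5′ to 3′ on the strand of the gene. Of the 8 members, 7 had a window in the table used, and Fst had none. Capitals mark AGGTCA, the half-site that nuclear receptors including COUP-TFII recognize.
Inhbb: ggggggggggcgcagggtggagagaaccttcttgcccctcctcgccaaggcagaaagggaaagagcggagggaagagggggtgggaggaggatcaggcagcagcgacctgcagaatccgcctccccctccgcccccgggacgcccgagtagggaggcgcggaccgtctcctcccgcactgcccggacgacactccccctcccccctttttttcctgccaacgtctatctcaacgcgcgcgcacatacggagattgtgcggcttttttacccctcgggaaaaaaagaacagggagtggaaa
Acvr2b: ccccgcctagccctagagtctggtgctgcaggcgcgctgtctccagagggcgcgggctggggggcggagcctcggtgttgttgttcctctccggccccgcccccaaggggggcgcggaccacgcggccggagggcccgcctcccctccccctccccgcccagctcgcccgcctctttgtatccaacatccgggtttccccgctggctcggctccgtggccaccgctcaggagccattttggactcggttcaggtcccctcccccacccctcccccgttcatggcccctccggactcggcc
Inha: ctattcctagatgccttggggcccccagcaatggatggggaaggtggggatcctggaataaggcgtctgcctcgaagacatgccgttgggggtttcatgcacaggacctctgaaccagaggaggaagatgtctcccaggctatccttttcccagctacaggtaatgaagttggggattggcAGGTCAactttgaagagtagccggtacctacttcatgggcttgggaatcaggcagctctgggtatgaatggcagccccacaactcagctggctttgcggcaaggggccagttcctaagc
The Inhbb window is chr1:119422199-119422498 on the minus strand, the Acvr2b window chr9:119401928-119402227 on the plus strand, and the Inha window chr1:75507359-75507658 on the plus strand. The Inha window lies inside the interval on which Inha was counted, which begins at 75507077, so it is not upstream of the counted start. AGGTCA, searched on both strands, stood in the Inha window 69 bases before the start (position -69) and, on the minus strand, in the Fstl3 window at position -200, and in none of the other 5 windows. Of 32851 promoter windows of this length, 5340 (16.3%) held it. TGACG, the half-site of the cyclic AMP response element, was searched on both strands and was found in no member window, against 6837 (20.8%) of all windows. A match gives the letters only, and binding was not measured here. GC content of the windows rose from 47.7% for Inhba and 55.3% for Inha to 64.3% for Inhbb, 70.7% for Fstl3, 73.3% for Acvr2b, 79.7% for Acvr1b and 80.3% for Acvr2a.

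Levels of the genes were compared per kilobase of exon, since longer transcripts collect more counts. Inha was the most abundant member in every library, with 140 ± 26.3 CPM per kilobase in controls (SD, n = 6). Inhbb followed with 28.2 ± 5.88 and Inhba with 21.1 ± 2.91 CPM per kilobase. The ratio of Inhbb to Inhba per kilobase was 0.833 in control 5 and above 1 in every other library, up to 1.92 in control 3 and 2.70 in cKO 5. Alpha exceeded beta throughout, with an Inha to Inhba ratio of 5.02 to 9.09 and an Inha to Inhbb ratio of 3.25 to 7.74. Acvr1b had 12.4 ± 1.44 CPM per kilobase in controls and Acvr2a 7.61 ± 0.67, with Acvr1b higher in every library. With the longer GENCODE transcript, however, Acvr1b had 9.22 CPM per kilobase in controls and was below Acvr2a in control 5, cKO 5 and cKO 6, so their order depends on the length used. The place of Acvr2b could not be set, because its level was 5.06 ± 1.02 CPM per kilobase with the exon length of the deposited interval and 17.0 with the shorter GENCODE transcript. Fstl3 was low at 2.56 ± 0.178 CPM per kilobase. Fst was the lowest member in the 8 libraries with low Xist, at 0.987 to 1.89 CPM per kilobase, and reached 23.0 in control 1.

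**Figure D1:**
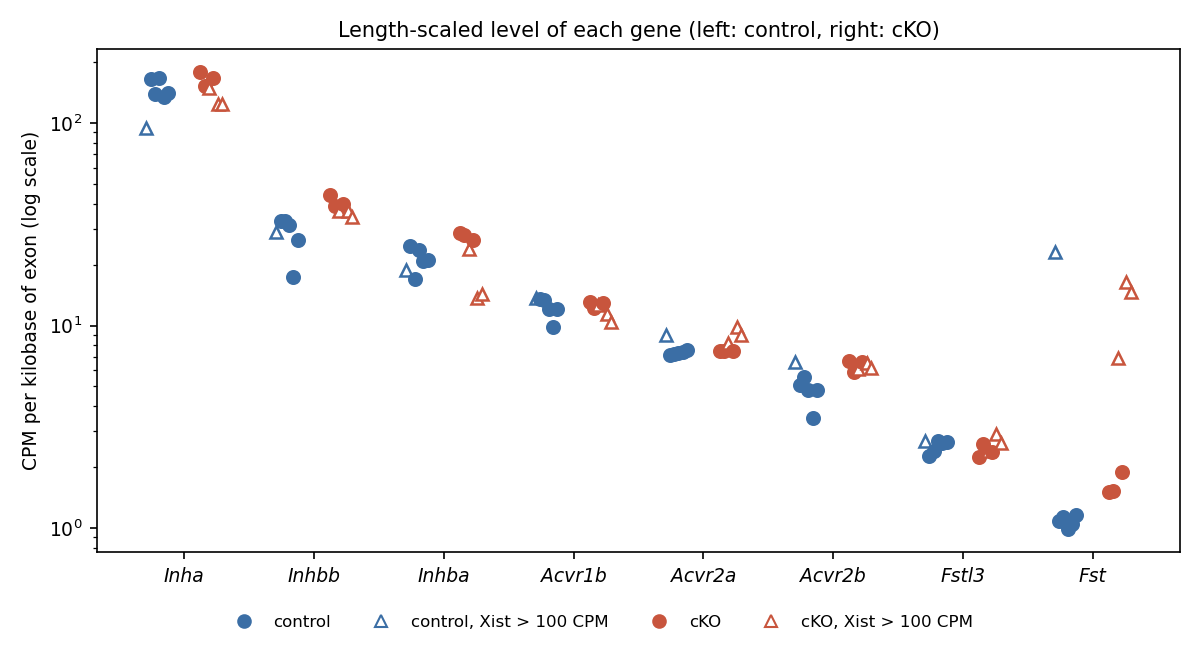
Level of each gene in CPM per kilobase of exon on a log axis, with 1 point per library, control on the left and cKO on the right of each gene; open triangles are libraries with Xist over 100 CPM. Inha lies highest throughout, and Fst spans from 0.987 to 23.0 CPM per kilobase with the 4 triangles on top.

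Inhbb rose in cKO testes, and no other member passed the test over 12 libraries. In the quasi-likelihood test of edgeR, with p-values adjusted over all genes by Benjamini-Hochberg, 1 of 8 members passed an adjusted p of 0.05, beside 1266 of 15572 genes tested (8.13%; 756 lower and 510 higher in cKO). Groups did not overlap for 1 of 8 members, against 5.52% of all genes. The median log2 fold change of the members was 0.11, and that of all genes tested was 0.00. In the 8 libraries with low Xist these medians were 0.26 and 0.01. With 8 members, 1 call is near the share of all genes and says nothing of the set. In RNA of whole testes, a change in the number of cells of a type and a change in RNA per cell cannot be told apart. By staining, the paper counted fewer interstitial and fetal Leydig cells in cKO testes at E14.5.

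**Figure D2:**
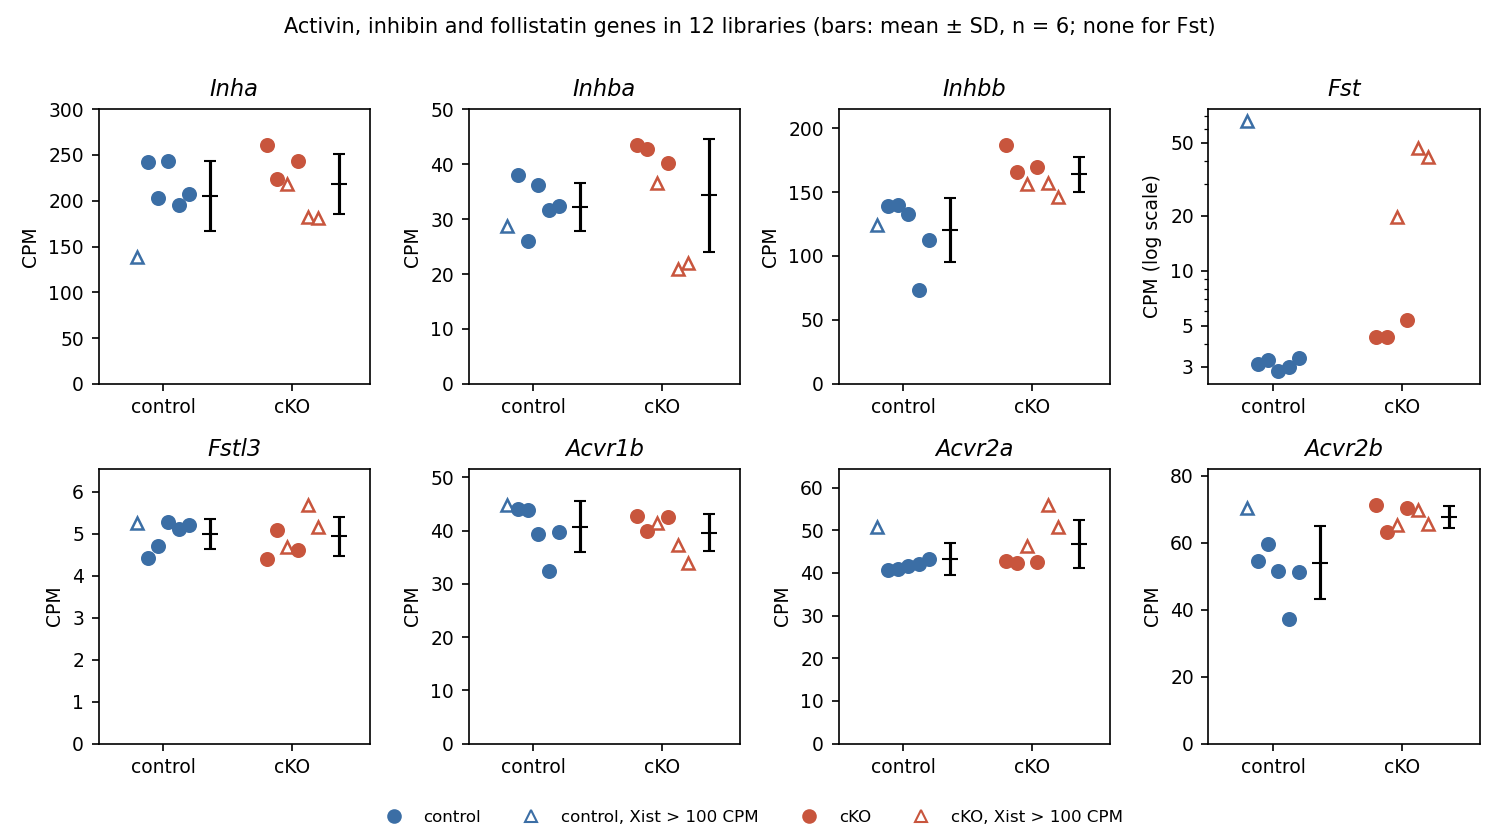
Level of each gene in CPM in 6 control and 6 cKO libraries, 1 point per library, with mean ± SD beside the points (n = 6; Fst, on a log axis, has no bar). All 6 cKO points of Inhbb lie above every control point, while for Fst the 4 libraries with high Xist, drawn as open triangles, lie above all others.

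Inhbb, on chromosome 1 (mm10 chr1:119415465-119422248, minus strand, Entrez Gene 16324), encodes the beta B subunit of activin B and inhibin B, which Sertoli cells are known to make. Control libraries 1 to 6 held 124, 139, 140, 133, 73.6 and 112 CPM, and cKO libraries 1 to 6 held 187, 166, 156, 170, 157 and 146 CPM. Every cKO library was above every control, and control 5 stood below the rest of its group. The means were 120 ± 25.0 and 164 ± 14.0 CPM (SD, n = 6 each), and the log2 fold change was 0.44 ± 0.13 (SE; edgeR adjusted p = 0.0481). The call was near the threshold: leaving out 1 library gave adjusted p-values of 0.0136 to 0.106, and the call was lost without control 2, 4 or 6 and without any single cKO library. DESeq2 gave an adjusted p of 0.0129. Among the 8 libraries with low Xist, 3 of 3 cKO were above 5 of 5 controls, and the log2 fold change was 0.55 ± 0.17 (edgeR adjusted p = 0.0756).

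Control 5 also differed from the other libraries in base composition. Its log2 CPM fell by 0.30 for each 10% of transcript GC content relative to the mean of the libraries, while the other slopes lay between -0.11 and 0.13. Inhbb transcript is 60.9% GC. With a correction for GC content, chosen after seeing the data, the log2 fold change of Inhbb was 0.40 ± 0.09 (edgeR adjusted p = 0.0115), and it was called in 12 of 12 fits that left out 1 library. The corrected fit called 10.4% of all genes.

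Inhbb was set beside the Sertoli markers because control 5 was low in both. Their 6-gene sum ran from 661 to 1136 CPM in controls and from 642 to 1137 CPM in cKO, and 0 of 6 markers was called by edgeR or DESeq2, with 0 at an unadjusted p under 0.05. The log2 ratio of Inhbb to this sum was -2.98 ± 0.14 in controls and -2.44 ± 0.24 in cKO (SD, n = 6 each), a difference of 0.54 with no overlap between groups. Within the 8 libraries with low Xist the difference was 0.38. This ratio and those to the Leydig markers were chosen after seeing the data and are given without a test.

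Inhba, on chromosome 13 (chr13:16014475-16027211, plus strand, Entrez Gene 16323), encodes the beta A subunit of activin A. Controls held 28.8, 38.0, 26.1, 36.3, 31.8 and 32.4 CPM in libraries 1 to 6, and cKO libraries held 43.6, 42.8, 36.5, 40.3, 20.9 and 22.0 CPM. The cKO libraries fell on both sides of the controls: 3 lay above all of them and 2, both with high Xist, below all of them. The log2 fold change over 12 libraries was 0.10 ± 0.18 (edgeR adjusted p = 0.753). Without the libraries with high Xist, the means were 32.7 ± 4.60 CPM (n = 5) and 42.1 ± 1.81 CPM (n = 3), and the log2 fold change was 0.36 ± 0.11 (edgeR adjusted p = 0.0757). The GC-corrected fit of those 8 libraries gave 0.43 with an edgeR adjusted p of 0.0398. Over 12 libraries the GC-corrected fit gave 0.13 (edgeR adjusted p = 0.695). With Xist over 100 CPM as a covariate, the 12 libraries gave 0.22 (edgeR adjusted p = 0.398).

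Inha, on chromosome 1 (chr1:75507077-75510354, plus strand, Entrez Gene 16322), encodes the alpha subunit that makes a dimer an inhibin. Its lowest, median and highest levels were 138, 205 and 243 CPM in controls and 181, 221 and 261 CPM in cKO. The groups overlapped, and control 1 was the lowest library. The log2 fold change was 0.09 ± 0.13 (95% interval -0.17 to 0.35; edgeR adjusted p = 0.688), and 0.16 ± 0.10 in the 8 libraries (edgeR adjusted p = 0.289).

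Leydig cell transcripts fell in cKO, whereas neither Inha nor Inhba passed the test. Of 6 fetal Leydig markers, 5 were called lower in cKO, among them Cyp17a1 (log2 fold change -1.15) and Cyp11a1 (-0.91), enzymes of androgen synthesis, and Insl3 (-2.35), the hormone of testis descent. Star, the cholesterol transporter, was -0.19 and was not called. The 6-gene sum ran from 1637 to 3006 CPM in controls and from 890 to 1812 CPM in cKO. It was lowest in cKO 5 and 6, the libraries with the least Inhba. The log2 ratio of Inha to this sum was -3.63 ± 0.17 in controls and -2.65 ± 0.28 in cKO (SD, n = 6 each), a difference of 0.98. The corresponding ratio of Inhba was -6.29 ± 0.25 and -5.37 ± 0.15, a difference of 0.92. In the 8 libraries with low Xist the differences were 0.88 and 1.09. These differences come mainly from the fall of the marker sum and are no separate evidence on the subunits. Interstitial progenitor markers moved as well: their 4-gene sum ran from 757 to 961 CPM in controls and from 508 to 833 CPM in cKO, and 1 of 4, Tcf21 (log2 fold change -1.03), was called lower. Contractile markers were called lower for 4 of 4 (sum 320 to 436 CPM in controls, 178 to 277 CPM in cKO). Macrophage markers were called higher for 2 of 4 (27.2 to 36.3 CPM and 41.6 to 52.6 CPM). Mesonephric epithelium markers were called higher for 2 of 4 (6.35 to 12.6 CPM and 13.3 to 18.9 CPM). Of 3 adrenal cortex markers 1, Mc2r (0.81), was called higher, and of 6 fetal ovary supporting cell markers 1, Wnt4 (-0.77), lower. In the single-nucleus data of the paper, Inhba was highest in the cluster of steroidogenic progenitors and not in Leydig cells. The share of Inha and Inhba made by Leydig cells, progenitors or other cells was not measured in these libraries.

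**Figure D3:**
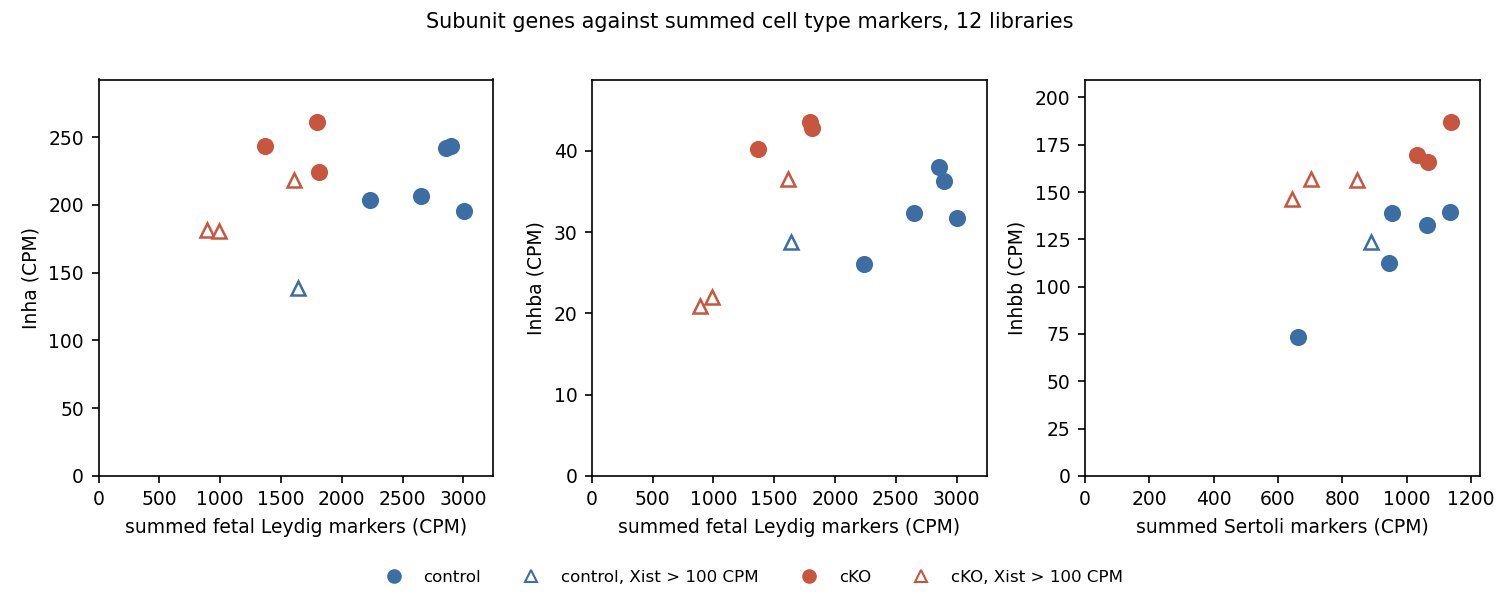
Inha and Inhba against the sum of 6 fetal Leydig markers, and Inhbb against the sum of 6 Sertoli markers, in CPM, with 1 point per library and open triangles for libraries with Xist over 100 CPM. For Inha and Inhba the cKO points lie at lower Leydig sums without lying at lower subunit levels as a group, and for Inhbb the cKO points lie above the controls at the same Sertoli sum.

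Fst, on chromosome 13 (chr13:114452262-114458951, minus strand, Entrez Gene 14313), encodes follistatin. Control libraries 1 to 6 held 65.7, 3.09, 3.24, 2.82, 2.98 and 3.33 CPM, and cKO libraries 1 to 6 held 4.33, 4.36, 19.7, 5.39, 46.7 and 42.0 CPM. The libraries fell into separate sets by Xist level rather than by genotype: the 4 with high Xist held at least 19.7 CPM and the others at most 5.39 CPM. The test over 12 libraries gave 0.49 ± 0.90 on the log2 scale (edgeR adjusted p = 0.759), and the estimate rose to 2.69 (edgeR adjusted p = 0.0149) when control 1 was left out. Relative to Inhba, Fst per kilobase was 0.0416 to 0.0716 in libraries with low Xist and 0.288 to 1.22 in those with high Xist.

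Within the 8 libraries with low Xist, Fst was higher in cKO, at 3.07 ± 0.186 CPM in 5 controls and 4.68 ± 0.596 CPM in 3 cKO libraries (SD), with no overlap. The log2 fold change was 0.62 ± 0.14 (edgeR adjusted p = 0.0216), and Fst was the 1 of 8 members called there, beside 7.08% of all genes. The call held in 5 of 8 fits that left out 1 more library, with adjusted p-values from 0.0132 to 0.154 and log2 fold changes from 0.49 to 0.67; it was lost without control 2, cKO 1 or cKO 4. Groups did not overlap for 4 of 8 members (Inhba, Inhbb, Fst and Acvr2b, all higher in cKO), against 28.2% of all genes. Markers of fetal ovary supporting cells moved in the same libraries: 3 of 6 were called higher and 1, Wnt4, lower. Foxl2, a transcription factor of those cells, was 0.23 to 0.53 CPM in the 5 controls and 0.86 to 1.30 CPM in the 3 cKO libraries. The part of these cells in the level of Fst was not tested. Over 12 libraries with Xist over 100 CPM as a covariate, the log2 fold change of Fst was 0.00 (edgeR adjusted p = 0.996).

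**Figure D4:**
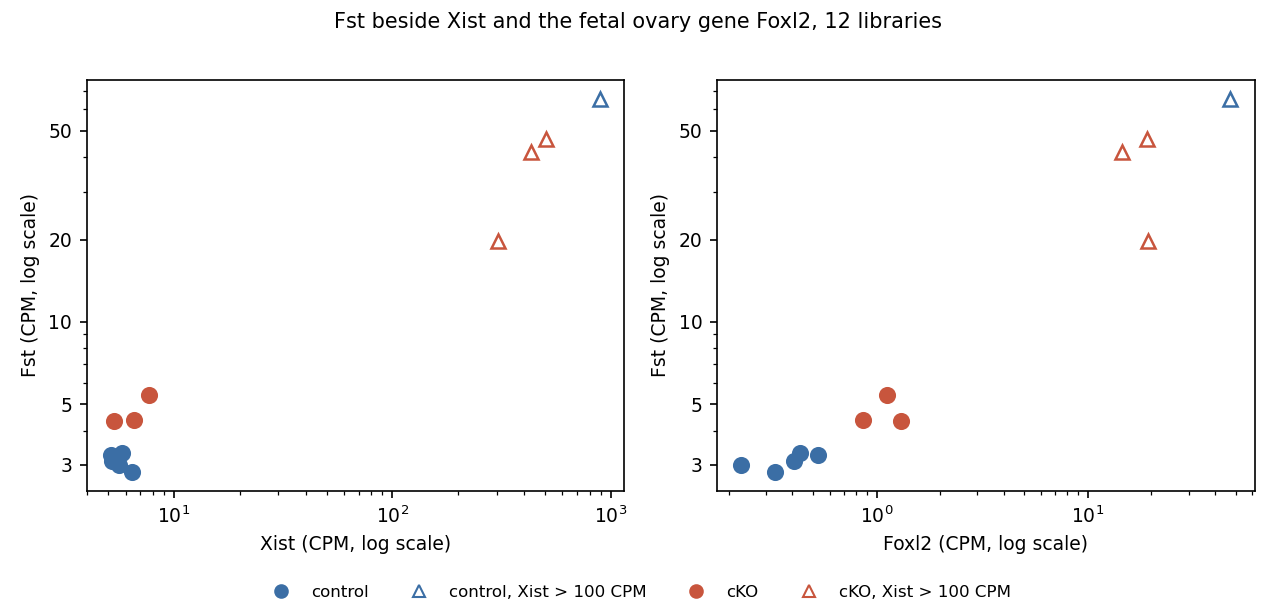
Fst against Xist and against Foxl2, all in CPM on log axes, with 1 point per library and open triangles for Xist over 100 CPM. The 4 triangles lie at 19.7 CPM of Fst or more, and among the other 8 the cKO points lie above the controls in both Fst and Foxl2.

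Fstl3, on chromosome 10 (chr10:79777274-79782630, plus strand, Entrez Gene 83554), encodes a related activin-binding protein. It ran from 4.43 to 5.27 CPM in controls (median 5.17) and from 4.40 to 5.70 CPM in cKO (median 4.89). The groups overlapped nearly fully, and the log2 fold change was -0.02 ± 0.10 (95% interval -0.23 to 0.18; edgeR adjusted p = 0.918). It was the member with the smallest change in the test over 12 libraries.

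Acvr2b, on chromosome 9 (chr9:119402178-119442148, plus strand, Entrez Gene 11481), encodes activin receptor type IIB. Control libraries 1 to 6 held 70.2, 54.4, 59.5, 51.4, 37.2 and 51.3 CPM, and cKO libraries held 71.4, 63.2, 65.3, 70.4, 69.6 and 65.6 CPM. Controls 2 to 6 were below every cKO library, and control 1, the control with high Xist, was among them. The means were 54.0 ± 10.9 and 67.6 ± 3.32 CPM (SD, n = 6 each), and the log2 fold change was 0.32 ± 0.11 (edgeR adjusted p = 0.103). Without control 1 it was 0.41 (edgeR adjusted p = 0.0128), and in the 8 libraries with low Xist 0.43 ± 0.13 (edgeR adjusted p = 0.0623). The GC-corrected fit gave 0.29 (edgeR adjusted p = 0.0419), a call kept in 2 of 12 such fits with a library omitted.

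Acvr2a, on chromosome 2 (chr2:48814109-48903264, plus strand, Entrez Gene 11480), encodes the other type II receptor. Controls held 50.8, 40.6, 41.0, 41.7, 42.2 and 43.2 CPM, and cKO libraries 42.7, 42.4, 46.3, 42.7, 56.0 and 50.8 CPM. As with Fst, the 4 libraries with high Xist were above the other 8, by a narrower margin. Such a separation by Xist was seen for 2 of 8 members and for 8.22% of all genes. The log2 fold change by genotype was 0.11 ± 0.08 over 12 libraries (edgeR adjusted p = 0.431) and 0.04 ± 0.07 in the 8 (95% interval -0.09 to 0.17; edgeR adjusted p = 0.740).

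Acvr1b, on chromosome 15 (chr15:101174125-101212601, plus strand, Entrez Gene 11479), encodes the type I receptor ALK4. Its lowest, median and highest levels were 32.4, 41.9 and 44.9 CPM in controls and 34.0, 40.6 and 42.7 CPM in cKO. No difference was detected: the log2 fold change was -0.04 ± 0.09 (95% interval -0.21 to 0.13; edgeR adjusted p = 0.789), and the sign turned in the 8 libraries with low Xist (0.06 ± 0.10).

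**Figure D5:**
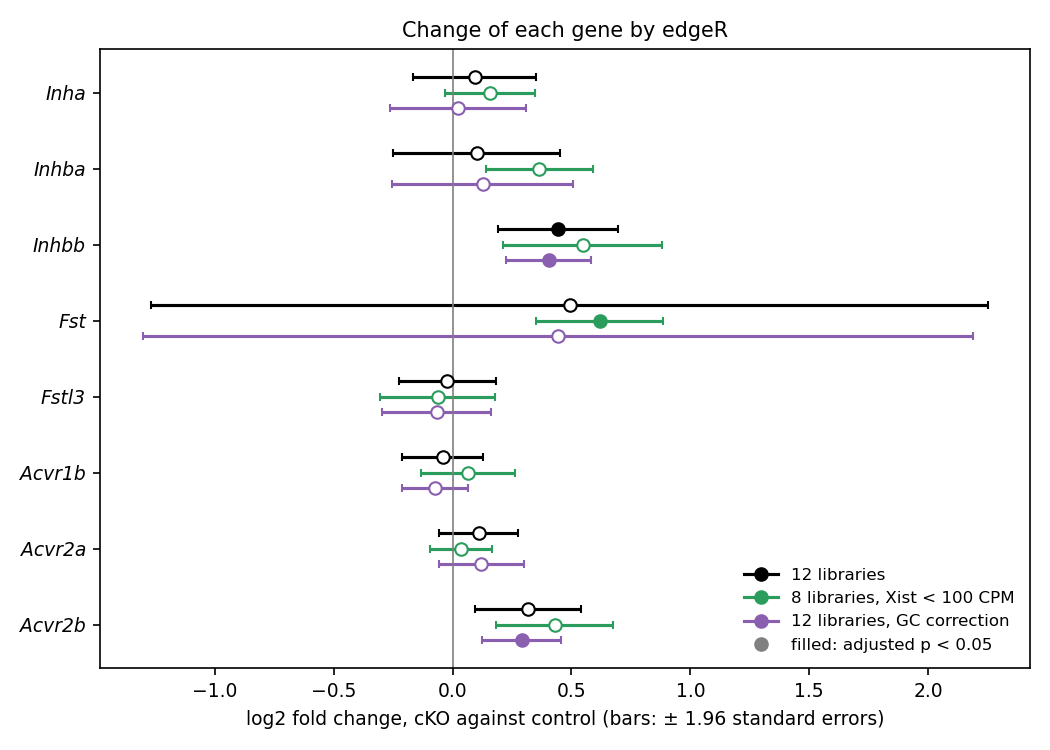
Log2 fold change of each gene in cKO against control with bars of the 95% interval, for 12 libraries, for the 8 libraries with low Xist and for 12 libraries with a GC correction; filled points have an edgeR adjusted p under 0.05. The whole intervals of Inhbb and Acvr2b lie to the right of 0 in all 3 fits. The points of Inha, Inhba, Fst and Acvr2a also lie there, but their intervals reach below 0 in some or all fits. The standard error of Fst is 0.90 with 12 libraries and 0.14 when the libraries with high Xist are left out.

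Pairs of members differed in their correlation across libraries. Over 12 libraries, Pearson's r of log2 CPM was 0.87 between Inhbb and Acvr2b, which were both lowest in control 5, and 0.71 between Inha and Inhba. Within the 8 libraries with low Xist, r was 0.97 for Inhbb with Acvr2b and 0.79 for Inha with Inhba. Among the other pairs there, r was 0.81 for Acvr1b with Acvr2b and 0.43 for Inha with Fst. For Inha with Fstl3 it was -0.54 there and -0.62 over 12 libraries. These libraries share genotype and base composition effects, and the values are descriptions. In a pool of 11881 genes averaging 5 CPM or more, those whose log2 CPM followed a member most closely by r over 12 libraries were Parp1 (0.99), Nf2 and Qsox2 for Inhbb, Rreb1 (0.98), N4bp2 and Wipf2 for Acvr2b, and S1pr3 (0.95), St3gal4 and Tagln2 for Inhba. After genotype means were subtracted, r was 0.98 for Parp1, 0.97 for Rreb1 and 0.95 for S1pr3. Ash2l, Rffl and Kctd18 ranked first for Inha (0.90 to 0.91, but 0.62, 0.79 and 0.43 within the 8 libraries), Rnf25, Lmln and Miga2 for Acvr1b (0.93 to 0.95), and Chid1, Pstk and Hyi for Fstl3 (0.79 to 0.84). For Fst the first were Runx1, Xist and Zfp541 and for Acvr2a Atp13a3, Lgals7 and Mei1. Because the libraries form separate sets for these 2 members, only r within the 8 libraries is given, which was 0.83, 0.59 and 0.87 for Fst and 0.84, 0.62 and 0.62 for Acvr2a.

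Other genes of the pathway were described from lists chosen by role. Of 39 genes, 34 passed the filter, and edgeR called 1 lower and 3 higher in cKO, a share near the 8.13% of all genes (median log2 fold change 0.13). In the 8 libraries with low Xist it called 1 lower and 6 higher of 34, a larger share than the 7.08% of all genes, and this difference was not tested. Acvr1c, which encodes the type I receptor ALK7, rose from 2.08 ± 0.462 to 5.38 ± 1.26 CPM (SD, n = 6 each; log2 fold change 1.40 ± 0.19, edgeR adjusted p = 0.0006), with no overlap between groups. Wfikkn2, a secreted antagonist of myostatin and GDF11, fell from 5.97 ± 0.813 to 2.98 ± 0.796 CPM (log2 fold change -0.997 ± 0.17, edgeR adjusted p = 0.0023). Both were called in the 8 libraries with low Xist as well (1.62 and -0.93). The other called genes were the cell cycle cyclins Ccnd1, from 41.9 ± 5.30 to 85.3 ± 14.8 CPM (1.02 ± 0.12, edgeR adjusted p = 0.0002), and Ccnd2, from 277 ± 17.6 to 354 ± 21.1 CPM (0.35 ± 0.06, edgeR adjusted p = 0.0033). These belonged to a list of 4 fetal testis genes described as depending on activin A; its other genes, Hsd17b1 and Hsd17b3 of androgen synthesis, were at -0.28 and -0.20 and were not called, and in the 8 libraries they were at -0.01 and 0.10.

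No transducer of the signal passed the test. Of 13 genes of SMAD proteins and their regulators, 0 were called by edgeR or DESeq2 in 12 libraries or by edgeR in 8 (2, 2 and 4 at an unadjusted p under 0.05), with a median log2 fold change of 0.03. Smad2 was 145 ± 5.09 CPM in controls and 148 ± 4.77 CPM in cKO, and Smad3 was 106 ± 32.1 and 107 ± 10.2 CPM. The proprotein convertases Furin and Pcsk5, which cleave precursors of this ligand family, were at 0.30 and 0.34 over 12 libraries without a call. Both were called higher in the 8 libraries with low Xist (0.51, edgeR adjusted p = 0.0498, and 0.54, edgeR adjusted p = 0.0251), as was Acvr1 (0.31, edgeR adjusted p = 0.0246), the type I receptor ALK2. Over 12 libraries Acvr1 was at 0.20, called by DESeq2 (adjusted p = 0.0462) and not by edgeR (adjusted p = 0.0863). Nodal and Lefty2, a ligand of germ cells and its antagonist, were at -0.46 and -0.45 and were not called by edgeR, while DESeq2 called Lefty2 (adjusted p = 0.045) and not Nodal (adjusted p = 0.0592). Tdgf1, the Nodal co-receptor, was at 0.53 (edgeR adjusted p = 0.164). Inhbc, Inhbe, Mstn, Cfc1 and Cer1 had too few counts for the edgeR filter.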

How the data were processed

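RNA was measured in whole E14.5 testes, 6 control and 6 cKO pools of 3 testes. The authors trimmed read pairs with Trim Galore 0.6.7, aligned them to mm10 with STAR 2.5 and counted them by strand on RefSeq Curated genes with featureCounts (Subread 1.5.0-p1), and deposited raw counts per gene without normalization. The members were picked by name, but they, the pathway and marker lists and the tests were chosen with earlier results of these data known.

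The analysis used edgeR 4.0.16 under R 4.3.3. Genes were kept by filterByExpr (minimum count 10, minimum total 15), libraries were scaled by TMM, and groups taken from the labels were compared by glmQLFit and glmQLFTest without covariates, at a Benjamini-Hochberg adjusted p of 0.05. The standard error is the log2 fold change divided by the square root of F. The biological coefficient of variation was 0.17. Counting error is of similar size for Fst and Fstl3 in the shallowest libraries (23 and 36 counts in control 6). CPM were taken after TMM scaling, and log2 values of them with 2 as the prior count. Levels per kilobase use exons of GENCODE M21 transcripts fitted to the deposited intervals, and GC content the longest transcript (15224 of 15572 genes). Promoter windows are from RefSeq. The tests were run on simulated data first.

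The authors used an earlier version of DESeq2. Alternatives were DESeq2 1.42.0, limma-voom (limma 3.58.1), other size factors, no filter, a replicate block, each library left out, and Xist over 100 CPM left out or as a covariate. The GC correction (a loess of log2 CPM on GC content per library), the ratios to marker sums and further fits with 1 library left out were added after seeing the data. Named genes were all members, pathway genes called or with a log2 fold change over 0.5 in size, marker genes whose list moved with a member, and the 3 genes most alike each member. Genes of a list named without a call (Smad2, Smad3, Furin, Pcsk5, Acvr1, Nodal and Lefty2) were chosen after their values were seen. No column of the table was left out.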

Additional observations from a re-analysis of the deposited data

Results flagged for a closer look

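Fst stood at 65.7 CPM in control 1, while the other 5 controls lay between 2.82 and 3.33 CPM, so the gap took up 0.992 of the range of the group. Acvr2a stood at 50.8 CPM in the same library, against 40.6 to 43.2 CPM in the other 5, a gap of 0.740 of the range. Both exceed Dixon's 95% critical value for 6 samples, and they were 2 of 16 groups examined, where chance alone marks about 1 in 20. Control 1 is the control library with Xist over 100 CPM, and the part of this in either value was not tested.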

How the results depend on the processing

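Counts of called members were small and moved with the settings. With no filter on low counts edgeR called 1115 genes and 0 of 8 members, and Inhbb was 0.44 (edgeR adjusted p = 0.0614). In that fit 2 members had an unadjusted p under 0.05, and the share of all genes at that level was not counted. Without the libraries with Xist over 100 CPM, Inhbb was 0.55 and no longer called, Fst was 0.62 and called, Acvr1b turned to 0.065, and 7 other pathway genes were called rather than 4 (7.08% of all genes there, 8.13% in 12 libraries). With Xist as a covariate, Inhbb was 0.47 (edgeR adjusted p = 0.0475) and Fst 0.00 (edgeR adjusted p = 0.996). The GC correction called 2 members (10.4% of all genes), with Acvr2b at 0.29. Together with leaving out the libraries with high Xist it called 4 members (13.1% of all genes), with Inhba at 0.43, Fst at 0.65, Acvr2b at 0.36 and Inhbb at 0.45, Acvr1b at 0.0051, 2039 genes and 7 pathway genes. DESeq2 called 1919 genes. With limma-voom, Inhbb was 0.46 (adjusted p = 0.0461) and Fst 1.01 (adjusted p = 0.506). Why these calls differ was not tested.

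Leaving out 1 library at a time gave log2 fold changes from -0.0016 (without control 1) to 0.15 for Inha, 0.02 (without cKO 1) to 0.21 (without cKO 6) for Inhba, 0.34 to 0.49 for Inhbb, 0.094 to 2.69 (without control 1) for Fst, -0.057 to 0.0093 (without cKO 1) for Fstl3, -0.094 to 0.00070 (without cKO 6) for Acvr1b, 0.06 (without cKO 5) to 0.16 (without control 1) for Acvr2a, and 0.24 to 0.41 (without control 1) for Acvr2b. It gave 816 (without cKO 4) to 3106 (without control 1) genes, 0 to 3 members and 4 to 7 pathway genes. The signs of Inhba, Inhbb, Fst, Acvr2a and Acvr2b were kept in all of these fits. With a replicate block, 931 genes were called, 7 pathway genes were called, Inhbb was 0.47 (edgeR adjusted p = 0.0415) and Fst 1.502 (edgeR adjusted p = 0.341). The replicate numbers did not pair the libraries: deviations of same-numbered libraries correlated from -0.33 to 0.24, over 0.1 in 2 of 6 pairs, and 1 of 12 libraries correlated best with its own number.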
